A study of Mus musculus with 2 samples.

Results

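The genes Igfbp2 to Igfbp7, which encode binding proteins for the insulin-like growth factors (IGFs), and Igf1r, which encodes the receptor of these factors, were followed in single cells of regenerating mouse mammary gland. They were chosen from their measured levels by cell class and library in these same data, so their levels and differences are given as a description, without a test. The 7 genes were among 27998 in the table, and all 7 had unique molecular identifiers (UMIs, tags that mark single transcript molecules) in both libraries. Basal cells carrying the R26R mT/mG reporter had been infected with adenovirus-Cre-GFP and mixed with wild-type luminal cells. The luminal partner had this reporter too and was red, whereas the infected basal cells were green. The mixture was placed in cleared fat pads of female nude mice aged 3 weeks. In the library labelled Ctrl the basal cells were Fgfr2+/+, and in the library labelled Fgfr2 KO they came from Fgfr2 fl/fl mice and were Fgfr2 null after Cre. The luminal partner was wild type in both, and the transplants were taken 5 days after surgery, sorted by FACS and run on the 10x Genomics platform. Each genotype had 1 library, so the spread between animals is unknown, and how many transplants were pooled was not stated in the sources used here. Nude mice lack mature T cells but keep other host immune and stromal cells.

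IGF1 and IGF2 are secreted growth factors that signal for growth and survival through the receptor tyrosine kinase IGF1R. In tissue most IGF is held by secreted binding proteins, which can keep the ligand from the receptor or deliver it locally, and proteases release it again. IGFBP5 is best known in the mammary gland from involution, when the milk-making epithelium dies back after weaning, and IGFBP7 is a more distant relative that binds IGFs weakly and is deposited in matrix and vessel walls.

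In the GRCm38 annotation all 7 are protein-coding genes. Igfbp2 (chromosome 1, 72824503 to 72852474, forward strand) and Igfbp5 (chromosome 1, 72857932 to 72874884, reverse strand) lie 5.457 kb apart with their 3′ ends facing each other. Igfbp3 (chromosome 11, 7206086 to 7213923, reverse strand) lies 3.539 kb from Igfbp1 in the same facing arrangement, while Igfbp4 (chromosome 11, 99041244 to 99054392, forward strand) is far away on that chromosome. Igfbp6 is on chromosome 15 (102144362 to 102149511, forward strand), Igfbp7 on chromosome 5 (77349240 to 77408041, reverse strand) and Igf1r on chromosome 7 (67952827 to 68233668, forward strand). The neighbours were not alike in level, as given below for Igfbp2 and Igfbp5, and Igfbp1 had 0 UMIs in every class.

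Promoters are shown for Igfbp5, the member furthest apart between the libraries in basal cells, and for Igfbp3 and Igfbp4, which in Ctrl leaned furthest to the basal and to the luminal side. Each is the 250 bases before the RefSeq transcript start (GRCm38.p6), with any match to the letters TATAAA on either strand in capitals. The Igfbp5 promoter is chr1:72874866-72875115 (reverse strand), that of Igfbp3 is chr11:7213924-7214173 (reverse strand) and that of Igfbp4 is chr11:99040994-99041243 (forward strand).
Igfbp5: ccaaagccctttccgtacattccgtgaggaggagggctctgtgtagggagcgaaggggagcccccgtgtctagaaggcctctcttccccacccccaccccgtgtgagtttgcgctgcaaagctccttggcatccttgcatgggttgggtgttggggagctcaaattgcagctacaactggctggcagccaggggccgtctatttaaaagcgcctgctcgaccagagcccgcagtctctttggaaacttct
Igfbp3: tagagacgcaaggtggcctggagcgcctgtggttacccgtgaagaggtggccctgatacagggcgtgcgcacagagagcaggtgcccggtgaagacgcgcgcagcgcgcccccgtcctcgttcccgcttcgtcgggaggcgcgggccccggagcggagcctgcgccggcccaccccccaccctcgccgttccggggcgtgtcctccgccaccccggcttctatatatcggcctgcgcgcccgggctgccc
Igfbp4: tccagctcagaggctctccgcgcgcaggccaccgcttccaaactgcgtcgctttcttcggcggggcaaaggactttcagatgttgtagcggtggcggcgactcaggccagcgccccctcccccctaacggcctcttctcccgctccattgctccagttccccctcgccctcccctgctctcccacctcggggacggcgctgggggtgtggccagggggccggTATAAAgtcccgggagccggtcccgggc
Of these 3, TATAAA stood only in the Igfbp4 promoter, starting at position -28 from the transcript start, and 12.4% of 32817 promoters of this length held it. None of the 3 held GGGCGG, the letters of a GC box, which 32.7% of promoters held and which the promoters of Igfbp2, Igfbp7 and Igf1r held. TTCNNNGAA, the letters of a STAT site, occurred in 7.01% of promoters and in no promoter listed for the 7 genes, and TGANTCA, the letters of an AP-1 site, occurred in 6.75% of promoters and in 1 of the 2 listed for Igfbp2. Both strands were searched, and each motif was searched on its own, whether or not its matches overlapped those of another. A match or its absence is a property of these letters alone.

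Cells were grouped by their own transcripts. A cell with at least 1 Ptprc UMI was immune, one with Col1a1 plus Col3a1 at 10 or more per 10000 UMIs was fibroblast-like, and the rest were basal or luminal keratin cells by whether Krt14 plus Krt5 exceeded Krt8 plus Krt18, if these 4 keratins reached 10 per 10000 UMIs. There were 268 Ctrl cells (median depth 16301 UMIs) and 86 Fgfr2 KO cells (median depth 10485), and no barcode was shared. The keratin classes were of like depth in both libraries, with medians of 16011 and 16985 UMIs in 64 Ctrl and 17 Fgfr2 KO basal keratin cells, and of 22599 and 23718 UMIs in 93 and 20 luminal keratin cells. Fgfr2 itself had 42 UMIs in Ctrl basal keratin cells (33.9 counts per 1000000 UMIs, CPM) and 7 in Fgfr2 KO basal keratin cells (24.7 CPM). Tags lie at the 3′ end of the transcript, and whether that end was outside the deleted part was not stated, so this does not check the deletion. All 10 genes of the basal marker list had UMIs in basal keratin cells of both libraries, and all 10 of the luminal list in luminal keratin cells of both. In Ctrl all 10 of either list also had UMIs in the other keratin class, so the sums tell more. The basal list summed to 9116 (Ctrl) and 11875 CPM (Fgfr2 KO) in basal and to 1631 and 1367 CPM in luminal keratin cells. The luminal list summed to 10155 and 7848 CPM in luminal and to 2239 and 1495 CPM in basal keratin cells.

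The class at the collagen threshold was mixed in its markers. The lowest collagen value inside it was 12.3 per 10000 UMIs, and the highest below the minimum, among cells without a Ptprc UMI, was 6.55. A further cell over the minimum, 1 in all, had a Ptprc UMI and was kept with the immune cells. All 10 genes of the fibroblast list were detected in the 11 Ctrl cells, at 36883 CPM in sum, although 1 of the 11 also carried keratins at 19.6 per 10000. In the 3 Fgfr2 KO cells the fibroblast list summed to 7865 CPM, with Dcn at 1505 CPM and Col1a1 at 1185 CPM, 7 of the 10 genes detected, and Lum, Fbln1 and Mfap5 at 0. Of these 3, 1 had immune list genes at 237 per 10000, and the other two had pericyte list genes at 50.6 and 10.3 per 10000, against at most 1.64 in any Ctrl cell of the class. The Fgfr2 KO cells are therefore named below only as collagen-positive cells.

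The binding proteins were also summed as a group. Their sum was highest in the class at the collagen threshold, at 3514 CPM (3256 to 3786) in Ctrl and 4582 CPM (3971 to 5261) in Fgfr2 KO. Igfbp2 to Igfbp7 together made up 2094 CPM (95% Poisson interval 2014 to 2176) in Ctrl basal keratin cells and 3335 CPM (3126 to 3555) in Fgfr2 KO basal keratin cells, a ratio of 1.59 (1.48 to 1.72). The luminal keratin sums were 1067 CPM (1027 to 1109) and 863 CPM (783 to 950), a ratio of 0.809 (0.728 to 0.897). Every basal keratin cell of both libraries had UMIs of at least 1 of the 6, with a median of 4 of the 6 per cell, against a median of 2 in luminal keratin cells. UMIs count molecules and are not scaled to transcript length, and how well each transcript is captured can differ between genes, so orders between genes are orders of UMIs. All intervals here cover counting error only.

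**Figure D1:**
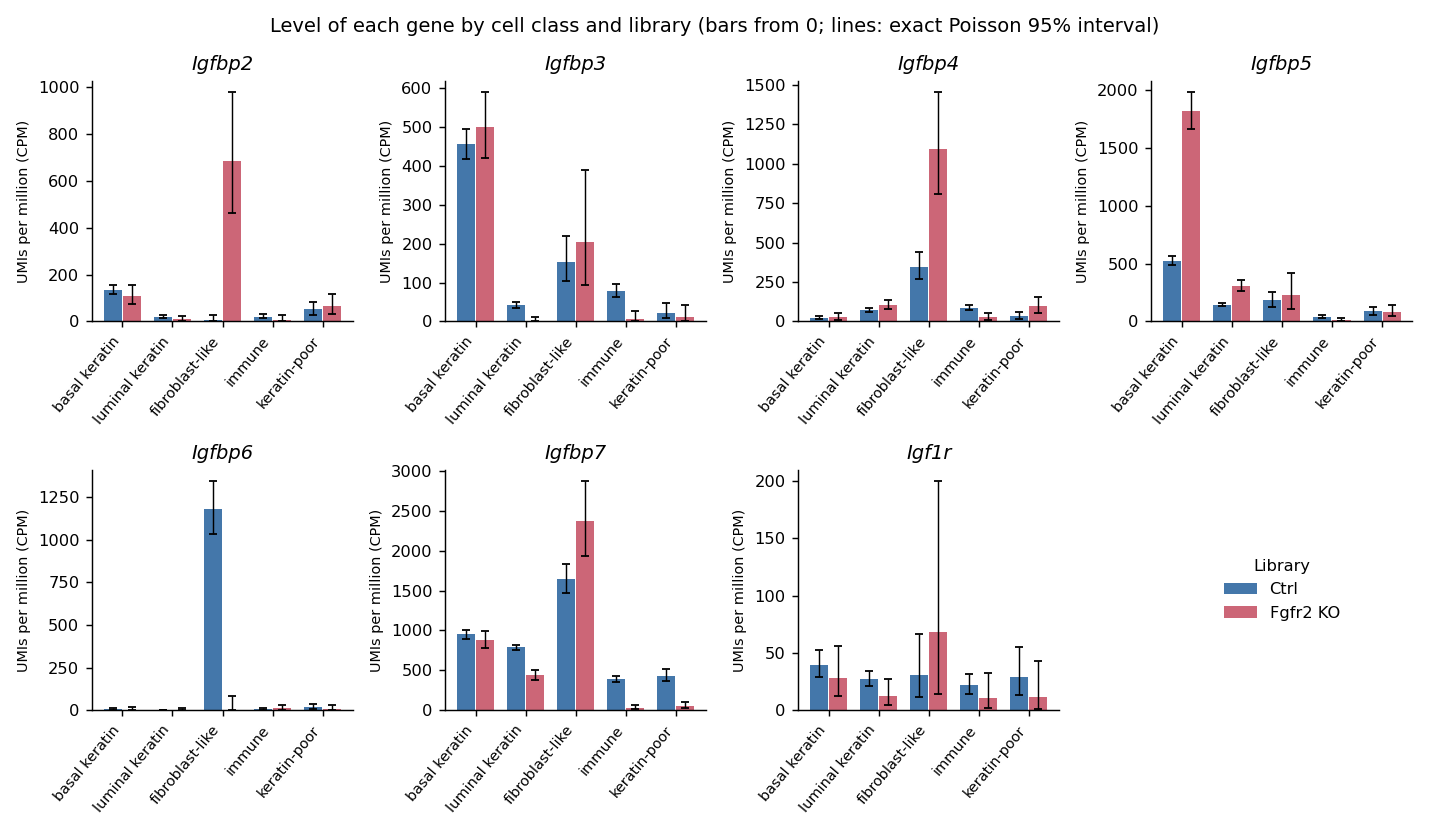
Level of each gene in CPM (y axis, from 0, its own scale in each panel) in the 5 cell classes, with Ctrl in blue and Fgfr2 KO in red and exact Poisson 95% intervals as lines. Igfbp3 and Igfbp5 stand highest in basal keratin cells, Igfbp6 in the 11 Ctrl fibroblast-like cells, and the Fgfr2 KO bars of the fibroblast-like class rest on 3 cells.

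The leading gene of the group differed between the libraries in basal keratin cells. In Ctrl, Igfbp7 made up 45.3% of the group's UMIs, Igfbp5 25.1% and Igfbp3 21.7%. In Fgfr2 KO, Igfbp5 made up 54.4%, Igfbp7 26.4% and Igfbp3 14.9%. Igfbp5 exceeded Igfbp7 in 23 of 64 Ctrl basal keratin cells and in 13 of 17 Fgfr2 KO ones. Among luminal keratin cells Igfbp7 led in both libraries, at 73.7% in Ctrl and 50.7% in Fgfr2 KO, with Igfbp5 at 13.7% and 35.7%.

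**Figure D2:**
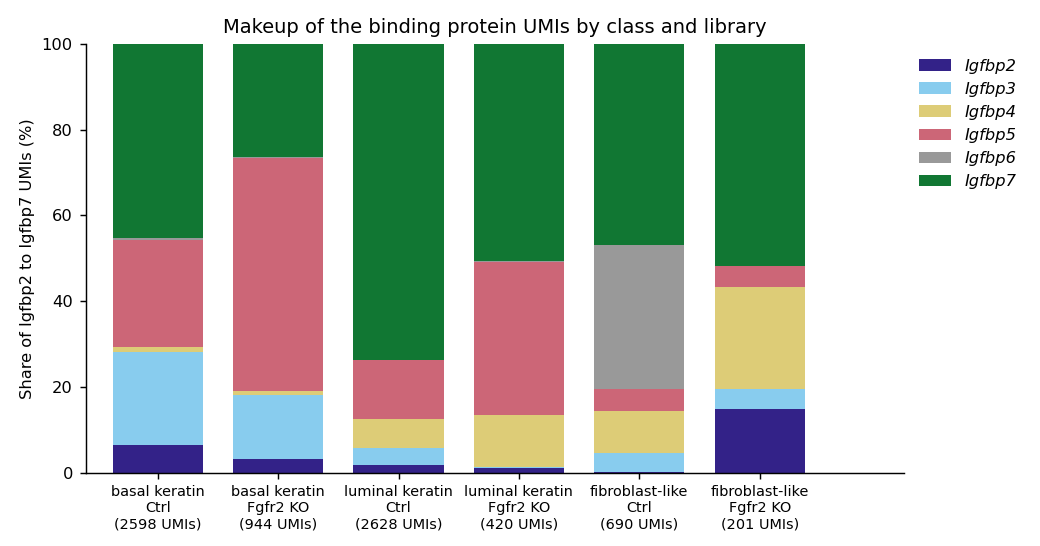
Share in percent (y axis) of the UMIs of Igfbp2 to Igfbp7 that came from each gene, by class and library, with the number of UMIs under each bar. Igfbp5 takes 54.4% of the Fgfr2 KO basal keratin bar against 25.1% in Ctrl, and Igfbp6 is seen in the Ctrl fibroblast-like bar.

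Igfbp5, the secreted protein named above for involution, was the member that differed most between the libraries in basal keratin cells. It had 651 UMIs in Ctrl, or 525 CPM (485 to 567), and 514 UMIs in Fgfr2 KO, or 1816 CPM (1662 to 1980). The ratio of Fgfr2 KO over Ctrl was 3.46 (exact interval 3.08 to 3.89), or 1.79 on the log2 scale. Per 10000 UMIs, single Ctrl cells ranged from 0 over a median of 2.91 to 40.4, and Fgfr2 KO cells from 0 over 15.5 to 53.0, so that the ranges overlapped while 14 of 17 Fgfr2 KO cells lay above the Ctrl median. Of 6632 genes tested in this comparison, 8 had a higher ratio. With the cell richest in Igfbp5 left out of each library the ratio was 3.28, and with each cell weighted equally it was 1.21 on the log2 scale, the lowest of 12 alternatives. Cells with an Igfbp5 UMI were 71.9% of Ctrl (46 of 64, 59.2 to 82.4%) and 88.2% of Fgfr2 KO basal keratin cells (15 of 17, 63.6 to 98.5%), and after thinning each cell to 5393 UMIs 59.0% and 82.4%. Immune cells, which gave the background, had shares of 26.0% and 8.70% at medians of 12228 and 6729 UMIs, and 16.2% and 0% after thinning, where 0 of 16 Fgfr2 KO cells allows a share of up to 20.6%.

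The Ctrl and Fgfr2 KO basal keratin cells differed in other markers as well. The basal list was higher in the Fgfr2 KO cells, at 11875 against 9116 CPM. Their median share of Krt14 plus Krt5 among the 4 keratins was 0.893, against 0.820. A list of hormone-sensing luminal genes, used below, was lower in the Fgfr2 KO cells, at 519 against 915 CPM. A list of secretory luminal genes was lower too, at 657 against 840 CPM. The sum of the immune list was 804 CPM in the Ctrl cells against 254 CPM in the Fgfr2 KO cells (0 to 46.2 and 0 to 4.90 per 10000 in single cells), with Ptprc at 0 in both by the rule. The luminal list summed to 2239 and 1495 CPM (5.49 to 68.6 and 3.59 to 36.5 per 10000), with 10 and 9 of 10 genes detected. The fibroblast list summed to 198 and 117 CPM, with Col3a1, Lum, Pdgfra, Dpt and Mfap5 at 0 in Fgfr2 KO, and the pericyte list to 39.5 and 63.6 CPM, with Pdgfrb at 0 in both. Their part in the Igfbp5 difference was not tested.

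The other members differed less in basal keratin cells. Igfbp3, which forms a long-lived complex with IGFs in blood, had 564 UMIs in Ctrl, or 455 CPM (418 to 494), and 141 in Fgfr2 KO, or 498 CPM (419 to 588), a ratio of 1.10 (0.905 to 1.32). Igfbp7 had 1178 and 249 UMIs, or 949 CPM (896 to 1005) and 880 CPM (774 to 996), a ratio of 0.927 (0.805 to 1.06). Both intervals held 1 and excluded a change as large as that of Igfbp5. Igfbp3 spanned 0 to 22.9 per 10000 in single Ctrl cells and 0 to 26.3 in Fgfr2 KO cells, with medians of 3.84 and 4.08, and Igfbp7 spanned 0 to 35.0 and 0 to 28.8, with medians of 7.55 and 9.09. For both genes the cells of the libraries covered the same range.

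Igfbp2, the binding protein whose gene neighbours Igfbp5, had 168 and 31 UMIs in basal keratin cells, or 135 CPM (116 to 158) and 110 CPM (74.4 to 155), a ratio of 0.809 (0.533 to 1.19). Of the Fgfr2 KO UMIs, 58.1% came from 1 cell, without which, and without the richest Ctrl cell, Igfbp2 was 2.24-fold lower in Fgfr2 KO. Igfbp4, a binding protein that the protease PAPP-A cleaves, had 30 and 8 UMIs (24.2 and 28.3 CPM), a ratio of 1.17 (0.463 to 2.61). Igfbp6, which prefers IGF2, had 7 UMIs and 1 UMI (5.64 and 3.53 CPM), a ratio of 0.626 (0.0139 to 4.87). These counts leave differences of either direction within the interval.

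A gene was counted as past the fold when its CPM differed at least 2-fold, with 20 or more UMIs over both libraries and 3 or more cells with a UMI in the higher one. By this rule 3.95% of 6632 genes were higher in Fgfr2 KO basal keratin cells and 11.4% were lower. Of the 6 members with enough UMIs, 1 was higher (Igfbp5) and 0 were lower, and Igfbp6 had too few. The median log2 ratio over all genes was -0.09. For luminal keratin cells, 4.30% of 8869 genes were higher in Fgfr2 KO and 8.94% lower, and of 6 members 1 was higher (Igfbp5) and 2 were lower (Igfbp3 and Igf1r), with a median over genes of -0.03. Since these contrasts chose the members, nothing is read from the counts.

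**Figure D3:**
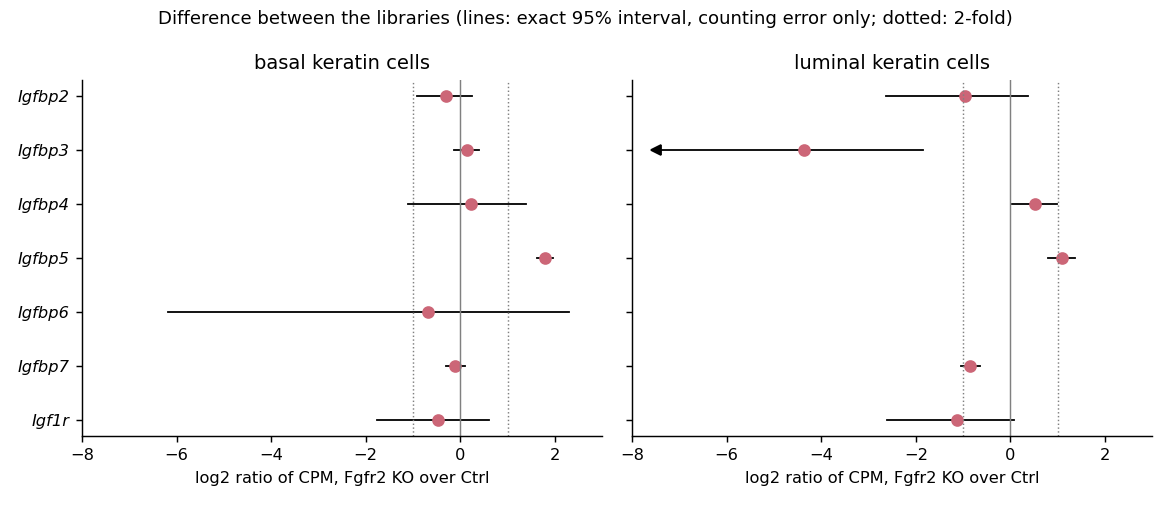
The log2 ratio of CPM, Fgfr2 KO over Ctrl (x axis), for each gene (y axis) in basal and luminal keratin cells, with exact 95% intervals for counting error and dotted lines at 2-fold; the arrow marks an interval that runs on. Igfbp5 lies at 1.79 in basal keratin cells while Igfbp3 and Igfbp7 lie near 0, and Igfbp3 lies far below 0 in luminal keratin cells, on 1 Fgfr2 KO UMI.

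The luminal cells put into the transplants were wild type in both libraries, but the donor of each luminal keratin cell was not traced here. The basal donor cells were the green ones. Leaving out cells with 10 or more GFP UMIs kept 90 of 93 Ctrl and 15 of 20 Fgfr2 KO luminal keratin cells. Whether the cells left out came from the basal donor was not tested. Igfbp3 had 104 UMIs in 24 of 93 Ctrl luminal keratin cells (42.2 CPM, 34.5 to 51.2) and 1 UMI in 20 Fgfr2 KO cells (2.06 CPM, 0.0520 to 11.5). It was 20.6-fold lower in Fgfr2 KO, with a counting interval of 3.61 to 819. Most of the Ctrl UMIs lay in cells nearer the keratin cut: the 69 Ctrl cells whose Krt14 plus Krt5 share of the 4 keratins was under 0.2 held 21 UMIs (11.1 CPM) against 1 in 18 Fgfr2 KO cells, 4.79-fold lower with an interval that included no change (0.770 to 198). Cells with an Igfbp3 UMI were 25.8% (17.3 to 35.9%) and 5.0% (0.127 to 24.9%) of the class, and 14.1% and 0% after thinning. Of the 20 thinned Fgfr2 KO cells with 0, the exact interval allows a share of up to 16.8%. Immune cells had shares of 17.8% and 8.70% and, after thinning, 10.3% and 6.25%, and their intervals overlapped the luminal ones in both libraries. The Ctrl immune class also held cells with keratins or endothelial genes, as given below. In the 80 Ctrl and 40 Fgfr2 KO cells regrouped by immune list genes the unthinned shares were 10% and 2.5%. Their median depths, 9806.5 and 5687 UMIs, were lower than those of luminal keratin cells.

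Igfbp7 in luminal keratin cells had 1937 UMIs in Ctrl, or 787 CPM (752 to 822), and 213 in Fgfr2 KO, or 438 CPM (381 to 501), a ratio of 0.556 (0.481 to 0.641). A single Fgfr2 KO cell gave 59.2% of its library's UMIs, and without the richest cell of each library Igfbp7 stood at 703 and 191 CPM, 3.69-fold lower in Fgfr2 KO. Single Ctrl cells had a median of 3.05 per 10000 and Fgfr2 KO cells 0.898, and after thinning 70.7% and 35.0% of cells had a UMI, against 36.8% and 18.8% of immune cells.

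Igfbp5 in luminal keratin cells had 359 UMIs in Ctrl, or 146 CPM (131 to 162), and 150 in Fgfr2 KO, or 308 CPM (261 to 362), a ratio of 2.11 (1.74 to 2.57). Of the Fgfr2 KO UMIs 47.3% came from 1 cell, and without the richest cell of each library the levels were 121 and 172 CPM, a ratio of 1.41, below the 2-fold mark. Medians per 10000 were 0 in Ctrl and 0.486 in Fgfr2 KO, and the ranges, 0 to 41.2 and 0 to 27.2, overlapped. Most luminal keratin cells of either library thus had little or no Igfbp5, and a few had as much as a basal keratin cell.

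Igfbp4 had 176 and 50 luminal UMIs (71.5 and 103 CPM), a ratio of 1.44 (1.03 to 1.98), but 90.0% of the Fgfr2 KO UMIs lay in 1 cell, and without the richest cell of each library Igfbp4 was 4.29-fold lower in Fgfr2 KO, at 12.4 against 53.3 CPM. Igfbp2 had 49 and 5 UMIs (19.9 and 10.3 CPM), a ratio of 0.516 (0.161 to 1.29). Igfbp6 had 3 UMIs and 1 UMI, at or under the floor of 3 counts used here, and no fold is given.

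**Figure D4:**
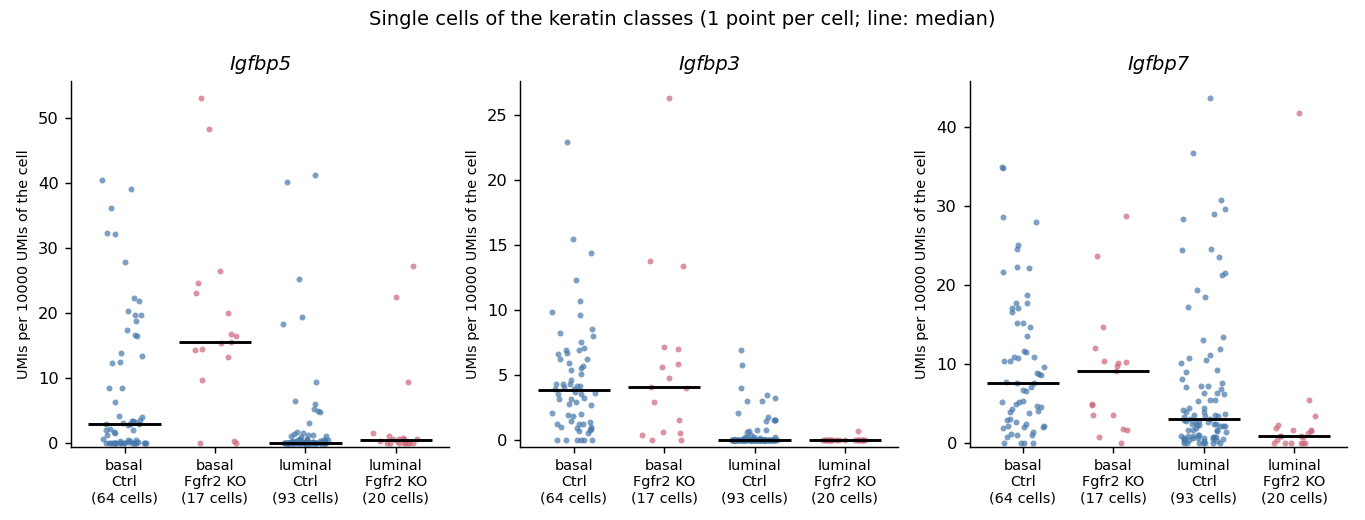
UMIs per 10000 UMIs of the cell (y axis) for Igfbp5, Igfbp3 and Igfbp7 in every keratin class cell, 1 point per cell, with the median as a line. The Igfbp5 median is 15.5 in Fgfr2 KO basal keratin cells and 2.91 in Ctrl ones, those of Igfbp3 are 4.08 and 3.84, and 1 Fgfr2 KO luminal keratin cell stands far above the others for Igfbp7.

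Between the keratin classes of the Ctrl library, Igfbp3 was 10.8-fold higher in basal than in luminal keratin cells (8.72 to 13.4), Igfbp2 6.81-fold (4.92 to 9.56) and Igfbp5 3.60-fold (3.16 to 4.11). Igfbp4 was 2.96-fold lower in basal keratin cells (2.0 to 4.51). Igfbp7 was nearly even at 1.21 (1.12 to 1.30), and Igf1r stood at 1.47 with an interval that reached 1 (0.997 to 2.17). Of 9409 genes tested in this contrast 5.55% were at least 2-fold higher in basal keratin cells and 8.98% lower, against 3 and 1 of 6 members. In Fgfr2 KO, Igfbp2 was likewise higher in basal keratin cells at 10.7 (4.11 to 35.1), Igfbp5 at 5.89 (4.90 to 7.11) and Igfbp7 at 2.01 (1.67 to 2.42). Without the richest cell of each class these ratios were 7.60, 9.29 and 3.96. Igfbp4 was 3.64-fold lower in basal keratin cells (1.71 to 8.88), but this direction rested on the 1 luminal cell with 90.0% of the UMIs: without the richest cells Igfbp4 stood at 22.5 CPM in basal and 12.4 CPM in luminal keratin cells. Igfbp3 had 141 basal against 1 luminal UMI, a ratio of 242 with an interval of 42.8 to 9642.

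Within the keratin cells, the levels followed the keratin balance, taken as the share of Krt14 plus Krt5 among the 4 keratins. In Ctrl, Igfbp3 was at 11.1 CPM in 69 cells with a share under 0.2, at 246 CPM in 52 cells between 0.2 and 0.8, and at 574 CPM in 36 cells over 0.8. Igfbp2 stood at 9.01, 84.5 and 161 CPM and Igfbp5 at 130, 313 and 635 CPM in the same order. Igfbp4 was at 62.0, 59.7 and 27.9 CPM, but 47 of the 72 UMIs of the middle range lay in 1 cell, and without the richest cell of each range it was at 50.8, 21.4 and 25.4 CPM. Igfbp7 was at 681, 1038 and 948 CPM. The intervals of the neighbouring ranges did not overlap for Igfbp2, Igfbp3 and Igfbp5, but did for Igfbp4 between the first pair of ranges and for Igfbp7 between the last pair.

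In the Fgfr2 KO library, the 14 cells over 0.8 had Igfbp3 at 594 CPM, a ratio of 1.03 (0.845 to 1.26), and Igfbp2 at 132 CPM, a ratio of 0.818 (0.528 to 1.24). Of the 31 Igfbp2 UMIs 18 lay in 1 cell, and without the richest cell of each library Igfbp2 stood at 60.1 CPM against 110 CPM in Ctrl, and Igfbp3 at 435 against 522 CPM. Igfbp5 in these cells was at 2143 CPM, a ratio of 3.38 (2.95 to 3.86), and 3.42 without the richest cell of each library. The part of the keratin balance in the Igfbp5 difference was not tested. In the range from 0.2 to 0.8, the 5 Fgfr2 KO cells had 82 Igfbp5 UMIs (791 CPM), a ratio of 2.53 (1.96 to 3.22), but 71 of the 82 lay in 1 cell. Without the richest cells the direction turned, to 142 CPM against 288 CPM in Ctrl. Those 5 cells had 1 Igfbp3 UMI against 297 in the 52 Ctrl cells, 25.5-fold lower with an interval of 4.54 to 1011, and 0 Igfbp2 UMIs against 102, at least 2.92-fold lower if the Fgfr2 KO cells are set to 3 counts. Of the Ctrl cells in this range 37 of 52 had an Igfbp3 UMI. Under 0.2, Igfbp5 was at 179 CPM in Fgfr2 KO, a ratio of 1.38 (1.05 to 1.79), with 45 of its 77 UMIs in 1 cell. This direction turned as well without the richest cells, at 83.6 CPM against 97.8 CPM in Ctrl. Igfbp7 under 0.2 was at 188 CPM, 3.62-fold lower (2.89 to 4.58), and without the richest cells at 101 CPM, 5.57-fold lower. Over 0.8 it was at 1036 CPM, a ratio of 1.09 (0.937 to 1.27). From 0.2 to 0.8 it was at 1322 CPM, a ratio of 1.27 (1.06 to 1.52), with 126 of 137 UMIs in 1 cell. Without the richest cells that direction turned, to 150 CPM against 961 CPM in Ctrl, 6.42-fold lower.

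**Figure D5:**
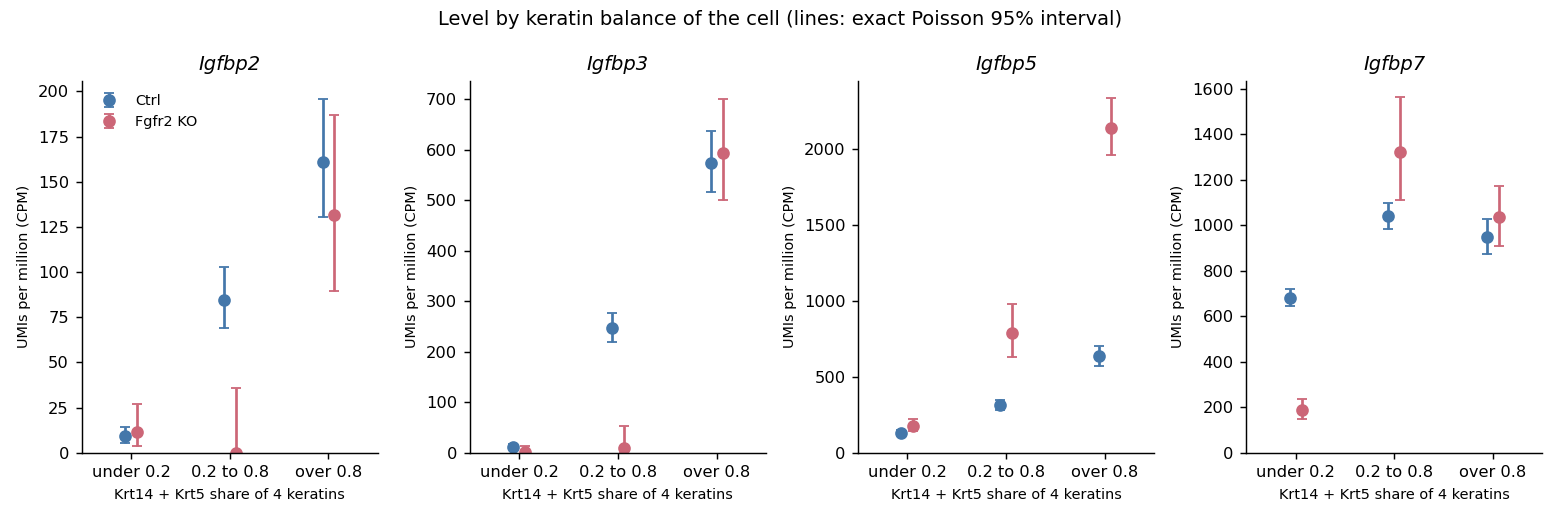
Level in CPM (y axis) of Igfbp2, Igfbp3, Igfbp5 and Igfbp7 by the share of Krt14 plus Krt5 among 4 keratins (x axis, 3 ranges), with Poisson 95% intervals; the ranges hold 69, 52 and 36 Ctrl cells and 18, 5 and 14 Fgfr2 KO cells. In cells over 0.8 the libraries are level for Igfbp3 (574 and 594 CPM) and apart for Igfbp5 (635 and 2143 CPM); in the range from 0.2 to 0.8, 1 Fgfr2 KO cell holds 71 of the 82 Igfbp5 UMIs and 126 of the 137 Igfbp7 UMIs.

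Mammary luminal cells comprise hormone-sensing cells, which carry the oestrogen and progesterone receptors, and secretory progenitors, which give rise to milk-making cells. A luminal list for each was summed in every keratin cell and the cell was placed with the larger sum, a division added after the data had been seen. Of the secretory list, Ltf, Lalba and Csn2 had 0 UMIs in Fgfr2 KO luminal keratin cells. In basal keratin cells Kit and Csn2 had 0 UMIs in both libraries, and Elf5, Ltf and Lalba in Fgfr2 KO. Of the hormone-sensing list, Tnfsf11 had 0 UMIs in both keratin classes of both libraries, and Prom1 in Fgfr2 KO basal keratin cells. The sides thus rest on the other genes of each list. Ties, 2 Ctrl cells and 1 Fgfr2 KO cell of the basal keratin class, were left out. Igfbp5 was on the secretory side. In 64 Ctrl luminal keratin cells of the hormone-sensing side it was at 15.9 CPM (10.4 to 23.3), and in 29 of the secretory side at 403 CPM (360 to 448). In Fgfr2 KO the values were 28.5 CPM (13.6 to 52.3) in 14 cells and 1036 CPM (871 to 1222) in 6 cells, of which 1 cell held 50.7% of the UMIs (633 CPM without it). Igfbp4 was on the hormone-sensing side in Ctrl, at 100 CPM (85.5 to 117) against 14.5 CPM (7.50 to 25.3), and in Fgfr2 KO at 139 against 7.40 CPM, with 91.8% of the former's UMIs in 1 cell (15.0 CPM without it). Igfbp7 was at 863 against 635 CPM in Ctrl and at 558 against 126 CPM in Fgfr2 KO. A single cell held 52.4% of the UMIs behind the Ctrl secretory value, which was 342 CPM without it, and 64.3% of those behind the Fgfr2 KO hormone-sensing value, which was 218 CPM without it. Igfbp3 was at 16.5 against 93.1 CPM in Ctrl.

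The same division of the basal keratin cells gave Igfbp5 at 279 CPM (241 to 322) in 32 Ctrl cells of the hormone-sensing side and at 802 CPM (729 to 881) in 30 of the secretory side. In Fgfr2 KO it stood at 997 CPM (813 to 1210) in 5 cells and at 2304 CPM (2085 to 2540) in 11 cells. On either side Igfbp5 was higher in the Fgfr2 KO library, with intervals that did not overlap, although 1 of the 5 Fgfr2 KO cells held 57.8% of their UMIs (590 CPM without it). Igfbp7 had no such shared order, at 1274 against 545 CPM in Ctrl and 362 against 1178 CPM in Fgfr2 KO, and 1 cell held 81.1% of the UMIs behind the 362 CPM (96.0 CPM without it).

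Igfbp6 was a gene of the Ctrl fibroblast-like cells. It had 232 UMIs in 8 of those 11 cells, or 1181 CPM (1034 to 1344), and at most 8 UMIs in any other class of either library. The 3 Fgfr2 KO collagen-positive cells had 0 UMIs, at least 17.3-fold lower if 3 counts are taken as the floor, but as stated they also carried pericyte or immune list genes and less of the fibroblast list, so the genotype and the kind of cell cannot be told apart. Igfbp7 was at 1645 CPM (1470 to 1834) and in all 11 Ctrl cells, the highest class for this gene in that library, and Igfbp4 was at 346 CPM (269 to 439), Igfbp5 at 183 CPM (128 to 254) and Igfbp3 at 153 CPM (103 to 218). Igfbp2, in contrast, had 1 UMI in the 11 Ctrl cells. In the Fgfr2 KO collagen-positive cells Igfbp2 had 22 and 8 UMIs in the pair of cells with pericyte genes, which also held 31 and 13 Igfbp4 UMIs and 61 and 43 Igfbp7 UMIs, while the cell with immune genes had 4 Igfbp4 UMIs and none of Igfbp2 or Igfbp7.

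In cells with a Ptprc UMI, Igfbp7 was at 390 CPM (357 to 427) in Ctrl and 33.2 CPM (15.2 to 63.0) in Fgfr2 KO, 11.8-fold lower (6.15 to 25.9). The other members were at 78.6 and 7.37 CPM for Igfbp3, 85.8 and 25.8 for Igfbp4, 40.1 and 11.1 for Igfbp5, 20.8 and 7.37 for Igfbp2 and 21.6 and 11.1 for Igf1r. For Igfbp2, 1 Ctrl cell held 13 of the 26 UMIs, and as a mean of per-cell rates the direction turned, to 6.16 and 10.7 CPM. A single Ctrl cell also held 54.1% of the Igfbp3 UMIs (37.0 CPM without it). Igfbp6 was at 6.41 and 11.1 CPM from 8 and 3 UMIs, a ratio of 1.72 (0.294 to 7.18), and at 5.95 and 3.79 CPM without the richest cell of each library. The Ctrl class held 6 cells that also exceeded the keratin minimum, with a median of 56746 UMIs and Igfbp7 at 1133 CPM. The immune and keratin-poor classes were therefore regrouped by marker lists, after the data had been seen. In 80 Ctrl and 40 Fgfr2 KO cells with immune list genes, Igfbp7 was at 61.7 CPM (46.9 to 79.5) and 38.4 CPM (19.2 to 68.7), Igfbp3 at 8.36 and 3.49 CPM and Igfbp5 at 21.9 and 14.0 CPM. In the same cells Igfbp4 was at 55.4 CPM (41.5 to 72.4) in Ctrl and 80.3 CPM (50.9 to 120) in Fgfr2 KO, Igfbp2 at 3.13 and 6.98 CPM and Igfbp6 at 7.31 and 14.0 CPM, so that for Igfbp4 and Igfbp2 the order of the libraries turned with the regrouping. The intervals overlapped for each of these genes. A set of 6 Ctrl cells had endothelial list genes, and in these Igfbp7 was at 1684 CPM (1452 to 1944) and Igfbp4 at 261 CPM (175 to 375), each in 5 of 6 cells (926 and 177 CPM without the richest cell), while all 53 Igfbp3 UMIs lay in 1 cell. The cells with immune genes thus lay below both keratin classes of their library for Igfbp7 and Igfbp5.

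Igf1r, the receptor through which the bound factors act, was low throughout. It was at 39.5 CPM (29.2 to 52.2) in Ctrl and 28.3 CPM (12.2 to 55.7) in Fgfr2 KO basal keratin cells, from 49 and 8 UMIs, a ratio of 0.716 (0.293 to 1.52). In luminal keratin cells it was at 26.8 CPM (20.7 to 34.1) and 12.3 CPM (4.53 to 26.8), from 66 and 6 UMIs, 2.17-fold lower in Fgfr2 KO with an interval that included no change (0.947 to 6.14). Among basal keratin cells over 0.8 it had 28 and 3 UMIs, 3.61-fold lower in Fgfr2 KO (1.11 to 18.5). From 0.2 to 0.8 it had 42 and 5 UMIs, a ratio of 1.39 (0.428 to 3.50). Under 0.2 it had 45 and 6 UMIs, a ratio of 0.585 (0.204 to 1.37).

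Of the other genes of the IGF pathway, the ligand Igf1 was highest per UMI in the collagen-positive cells, at 209 CPM (Ctrl, 41 UMIs) and 410 CPM (Fgfr2 KO, 18 UMIs), and at 124 and 173 CPM without the richest cell of each library. Immune cells held 89 and 14 UMIs, at 71.4 and 51.6 CPM, and keratin-poor cells were at 28.9 and 83.3 CPM. It was at 13.7 and 17.7 CPM in basal keratin cells, a ratio of 1.29 (0.372 to 3.64), and at 6.78 and 3.79 CPM without the richest cells. Luminal keratin cells had 2 and 5 UMIs. Igf2 had 0 UMIs in basal keratin cells of both libraries, where the floor of 3 counts stood at 2.42 CPM (Ctrl) and 10.6 CPM (Fgfr2 KO), and Ins1 and Ins2 had none there either. Igf2r, which clears IGF2, was at 11.3 and 14.1 CPM in basal and 25.6 and 18.5 CPM in luminal keratin cells, and the insulin receptor gene Insr at 4.84 and 7.07 CPM and at 8.53 and 12.3 CPM. Ghr, the growth hormone receptor gene, was at 27.4 and 28.3 CPM in basal keratin cells.

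A list of 44 IGF pathway genes, of which 43 were in the table, was counted by the same fold rule. In basal keratin cells 22 could be tested, of which 0 were higher in Fgfr2 KO, 3 were lower and 19 were under the fold, with a median log2 ratio of 0.02. With 3.95% of all genes tested higher and 11.4% lower, these counts lay near the background and are no result about the list. The 3 were Pappa, the protease that cleaves IGFBP4 (25 UMIs and 1 UMI, 5.70-fold lower with an interval of 0.934 to 234), Kazald1, which shares the N-terminal fold of the binding proteins (31 and 2 UMIs, 3.54-fold lower, 0.900 to 30.5), and Lif, an upstream ligand of Stat3 (43 UMIs and 1 UMI, 9.81-fold lower, 1.67 to 396). Stat3, which acts in involution, was at 164 and 159 CPM, and its target Socs3 at 323 and 640 CPM, a ratio of 1.98 (1.65 to 2.36), just under the fold. Osmr, a receptor that signals to Stat3, was at 35.5 and 70.7 CPM, a ratio of 1.99 (1.11 to 3.45) and of 1.39 without the richest cells.

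In luminal keratin cells 24 of the list could be tested, with 1 higher, 3 lower and 20 under the fold and a median log2 ratio of 0.02, again near the background of 4.30% higher and 8.94% lower. The higher gene was Grb10, an adapter that damps the receptor (16 and 10 UMIs, ratio 3.16, 1.28 to 7.41). The lower ones were Igf1r, given above, and the matricellular genes Ctgf (332 and 14.4 CPM, 23.1-fold lower, 11.2 to 57.6, and 34.8-fold without the richest cells) and Cyr61 (464 and 136 CPM, 3.42-fold lower, 2.67 to 4.46), which share the binding protein fold at their N-termini. In basal keratin cells Ctgf was at 625 and 481 CPM and Cyr61 at 589 and 587 CPM.

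For each member the 3 genes with the most similar pattern were taken by Pearson correlation of log2(1 + UMIs per 10000) over 354 cells of both libraries, among 6420 genes. These cells share 2 libraries and differ in depth and class, and the values are descriptive. Igfbp3 was most like Krt5 (r = 0.74), Col9a3 (0.65) and Krt14 (0.63), of which the keratins also set the class. Igfbp5 was most like Lcn2 (0.78), which encodes a secreted iron-scavenging protein, Chil1 (0.70) and Col9a2 (0.69). Igfbp6 was most like Mfap5 (0.81), Htra3 (0.77) and Lum (0.77), genes of the matrix or its processing. Igfbp7 was most like the actin-associated Cnn3 (0.63) and Cald1 (0.62) and the collagen chaperone Serpinh1 (0.61). Igfbp2 reached 0.49 with Id4, 0.47 with Myl9 and 0.45 with Mylk, Igfbp4 0.39 with Col1a1 and 0.38 with Col1a2 and Dpt, and Igf1r 0.34 with Lhfp and 0.32 with Thbs1. Igfbp3 and Igfbp5 correlated at 0.50 over all cells, at 0.11 within the 64 Ctrl basal keratin cells and at 0.47 within the 17 Fgfr2 KO ones.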

How the data were processed

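The authors deposited 1 table of raw UMI counts per gene and cell for both libraries, made with Cell Ranger 2.1.1 on mm10 per the labels and joined by its aggr function per the study's methods. Whether aggr thinned reads, and the annotation, were not given in the sources used here. The table had 28000 rows, of which 2 were reporters, and no barcode was shared. The library came from each column's prefix.

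From the counts, each gene's UMIs in a class and library were set against the total UMIs of the same cells (counts per 1000000, CPM). Intervals are exact 95% Poisson intervals for levels, exact conditional binomial intervals for ratios and Clopper-Pearson intervals for shares, and like the floor of 3 counts they cover counting error only. There was no test, because each group had 1 library. Doublets were kept; Scrublet called 1 of 268 and 2 of 86 cells on a single thread, and the Ctrl number changed with the thread and numerical library settings. Cells that CD45 would remove were kept as a class of their own. The interval step was tested on simulated data. The members and lists were chosen with earlier results of these data known. Genes named beyond the members were the ligands, the receptors and those past the fold of the pathway list, and the 3 most similar genes per member with r of at least 0.3, of which 1 is not reported here; Stat3, Socs3, Osmr, Fgfr2 and the basal values of Ctgf and Cyr61 were named after their values had been seen. Gene positions came from GENCODE M21, which held 95.2% of the symbols; all 7 members matched a RefSeq promoter. Python 3.11.15, SciPy 1.17.1, pandas 2.3.3 and Scanpy 1.11.5 were used. Alternatives changed the class rules, the doublets, shallow, mitochondrial-rich and GFP-high cells, the scaling, the filter and the richest cell.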

Additional observations from a re-analysis of the deposited data

How the results depend on the processing

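The Igfbp5 ratio in basal keratin cells stayed past 2-fold under all 12 alternatives tried, from 1.21 to 1.89 on the log2 scale. No paired analysis was possible because each group had 1 library and the labels give no replicate numbers; for the same reason no replicate could be left out. The count of members past the fold in basal keratin cells, 1 as reported, was 2 where one keratin pair had to reach 80% (Igf1r lower) and 2 without the richest cell of each library (Igfbp2 lower). In luminal keratin cells the count of 3 (1 higher, 2 lower) fell to 1 lower with no keratin minimum and to 2 lower with one keratin pair at 80%. It was 4, all lower, with at least 2 Ptprc UMIs, with keratin classes taken first and without the richest cells, and 4 (1 higher, 3 lower) without called doublets. As a mean of per-cell rates and without cells of 10 or more GFP UMIs it was 3, all lower. The higher member in the count as reported was Igfbp5, and Igfbp5 was past 2-fold there in 5 of 12 alternatives. The summed log2 ratio in basal keratin cells, 0.67, was 0.53 with no keratin minimum, 0.50 as a mean of per-cell rates and 0.53 without the richest cells. In luminal keratin cells, where it was -0.31, it was -0.87 with one keratin pair at 80%, -0.56 with at least 2 Ptprc UMIs for immune cells, -0.62 with keratin classes taken first, -0.76 without called doublets, -0.55 as a mean of per-cell rates, -0.65 without the richest cells and -0.12 without cells of 10 or more GFP UMIs, an alternative added after the data had been seen. Igfbp2 in immune cells reversed to 0.79 on the log2 scale as a mean of per-cell rates. The cause of these shifts was not tested. The Fgfr2 KO values are limited by 17 basal and 20 luminal keratin cells, of which 1 can hold most of a gene's UMIs, and in immune cells also by depth (median 6729 against 12228 UMIs).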
